A study of Homo sapiens with 6 samples.

Results

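The transcripts of 9 p53 target genes were followed in cells carrying wild-type or S34F mutant U2AF1. The genes were MDM2, PPM1D, GADD45A, RRM2B, SESN1, SESN2, TP53I3, TP53INP1 and ZMAT3, all direct targets of p53, and they are 9 of the 31142 genes in the deposited table. They were chosen by symbol, which had to match a gene name in that table, and the rule uses no expression value. U2AF1 is the splicing factor that reads the end of an intron, and S34F is a substitution in it that recurs in myelodysplastic syndrome. RNA was sequenced from 3 libraries of cells stably transduced with a lentivirus for FLAG-tagged U2AF1 S34F (S34F) and 3 libraries labelled as wild-type U2AF1 (WT). All 6 libraries are labelled as SKM-1, a leukemia line that arose from myelodysplastic syndrome, harvested at 96 h, and the added U2AF1 came on top of the cells' own gene. The WT labels leave undecided whether those cells carried the wild-type vector or a vehicle control, since the sample text names both. No label says whether the 3 libraries of a group came from separate cultures, so the p-values measure only the spread between these libraries.

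p53 is a transcription factor that is held at a low level by the ubiquitin ligase MDM2 and is released from it after DNA damage, nucleotide shortage, oncogene activity or ribosome stress. It then binds response elements near or inside its target genes and turns on genes for cell cycle arrest, DNA repair, antioxidant defence and cell death, along with genes that shut the response down again. In blood cells it removes stem and progenitor cells with damaged genomes. Several of these targets answer to other factors as well. SESN2 and GADD45A are induced by ATF4 in the integrated stress response, and SESN1 and GADD45A are targets of FOXO factors.

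Matches to the p53 response element were sought by sequence, only in the bases before annotated transcript starts. RefSeq promoter windows (GRCh38.p14) of 6 of the 9 genes were searched over 250 bases upstream of an annotated transcript start. No window of GADD45A, RRM2B or TP53INP1 was searched, whether or not one is annotated, so the motif results do not cover these genes. The search took in 12 windows, for MDM2, SESN1, SESN2, TP53I3, ZMAT3 and PPM1D. Each window was compared with the p53 response element, a 20-letter consensus of 2 adjoining half-sites, without a spacer and on either strand. Stretches of 120 bases from the best windows of MDM2 and SESN1 are shown, with the matches in capitals. They hold the closest matches among the genes searched.
MDM2, chr12:68808877-68808996, plus strand, ending 20 bases before a start inside the gene: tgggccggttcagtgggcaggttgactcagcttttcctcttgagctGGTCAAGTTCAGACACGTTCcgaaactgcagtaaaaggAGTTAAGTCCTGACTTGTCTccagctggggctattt
SESN1, chr6:109009009-109009128, minus strand, ending 20 bases before a start inside the gene: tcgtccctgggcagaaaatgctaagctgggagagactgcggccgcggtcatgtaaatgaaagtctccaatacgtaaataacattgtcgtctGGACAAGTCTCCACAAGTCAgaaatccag

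Both stretches are intronic in GENCODE 29, with no exon in them. In MDM2 the first match carried 18 of the 20 letters and began 94 bases before the start, and the second carried 17 and began 56 bases before it. The same pair lay in another MDM2 window, whose start is 7 bases away from this one. In SESN1 the match carried 17 of 20 letters, began 49 bases before the start and included 1 half-site with all 10 letters. Of 35116 RefSeq windows of that length, 0.561% held a match of at least 18 letters, 4.36% one of at least 17, and 5.57% a half-site with all 10 letters. The windows of SESN2, TP53I3, ZMAT3 and PPM1D reached 14 to 16 letters, a level of 16 being met by 22.1% of all windows. The ATF/CREB motif TGACGTCA, which reads the same on both strands, was found in 1 of the 12 windows, that of PPM1D at 61 bases before the start, and in 1.65% of all windows. The forkhead motif GTAAACA, searched on both strands, was in none of the 12 and in 2.98% of all. A match describes letters only, since no binding was measured here.

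The values are FPKM, in which fragments are divided by transcript length and by the size of the library, which allows levels to be compared between genes. One fragment per kilobase was worth 0.0383 to 0.0488 FPKM in the 6 libraries, as read from the commonest low value of single-exon genes. That value was sought only within a range set in advance. It gives about 20500000, 23100000 and 24800000 fragments in S34F replicates 1, 2 and 3. In WT replicates 1, 2 and 3 it gives about 25800000, 26100000 and 24800000. Genes with a mean of at least 1 FPKM were tested, 10942 in all, with limma on log2(FPKM + 1), a scale that understates the change of low genes. S34F replicate 3 stood apart, at 35.1 on a first principal component that held 47.9% of the variance, followed by WT replicate 3 at 12.9, while the other 4 libraries were below 0. Several results that rest on these libraries are given with and without them. U2AF1 itself had 9.30 ± 0.159 FPKM (SD, n = 3) in S34F and 8.34 ± 0.595 in WT, an FPKM value that does not separate the mutant from the wild-type transcript. Of 12 erythroid markers, 9 had a mean of at least 10 FPKM, with a median of 551 FPKM and the embryonic globin HBE1 at 5058 to 5834 FPKM. Of 12 monocytic and myeloid markers, 8 had a mean below 1 FPKM, and MPO, S100A8 and FCN1 were at or near 0, although LYZ and SPI1 had means of 15.7 and 10.6 FPKM. These levels go against the labelled myeloid line. The cells are therefore called here by their labels S34F and WT. In RNA from whole cultures, fewer cells of a type and less RNA per cell cannot be told apart.

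The p53 target genes covered a wide range of levels. GADD45A was the most abundant, at 54.2 to 70.6 FPKM over the 6 libraries, and SESN2 followed at 20.5 to 33.6 FPKM. The mean of GADD45A was 2.36 times that of SESN2, which in turn was 6.0 times that of TP53INP1, and at neither step did the ranges over libraries overlap. TP53INP1, SESN1, TP53I3, PPM1D, MDM2 and RRM2B followed in that order between 1.83 and 6.80 FPKM, and each overlapped its neighbour in the order. ZMAT3 came last at 0.294 to 0.826 FPKM, below every library of RRM2B. Among the genes tested, the mean of GADD45A stood at the 93.9th percentile, that of SESN2 at the 85.4th, and those of MDM2 and RRM2B at the 25.8th and 23.2nd. The lowest library of ZMAT3 held about 6.82 fragments per kilobase and that of GADD45A about 1358, so the precision of these genes differs widely.

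**Figure D1:**
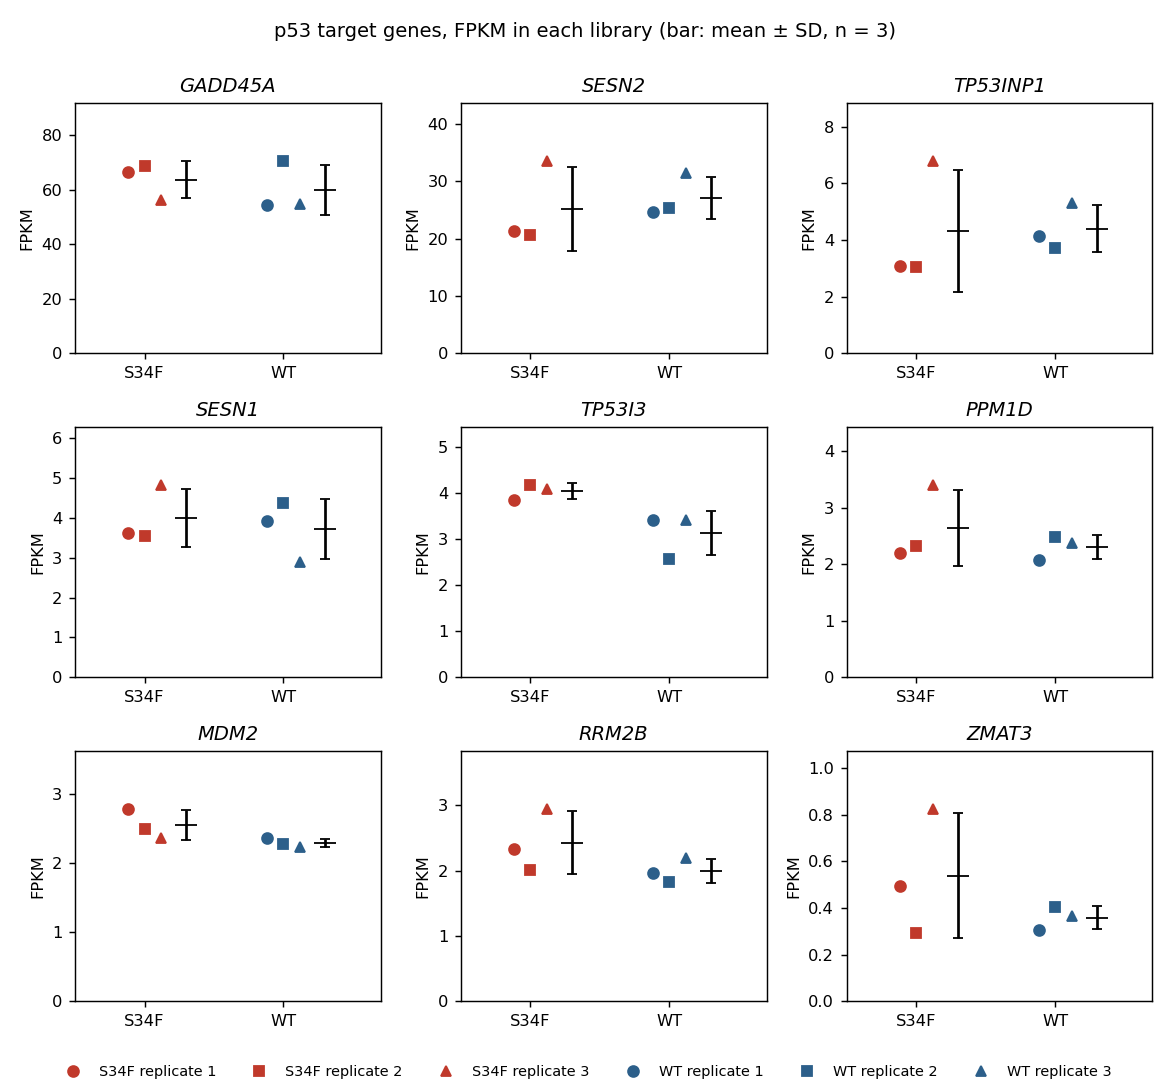
FPKM (vertical axis, linear, from 0, with its own scale for each gene) of the 9 p53 target genes in the 3 S34F and 3 WT libraries, with the group mean ± SD as bars (n = 3). For TP53I3 and MDM2 the S34F libraries all lie above the WT libraries, and for TP53INP1, SESN2, SESN1, PPM1D, RRM2B and ZMAT3 the highest point is S34F replicate 3.

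S34F was compared with WT to ask whether p53 target transcripts differed between the genotypes. At an unadjusted p under 0.05, 1 of the 8 genes tested differed, TP53I3, against 262 genes or 2.39% of all 10942 tested. None of the 8 had a fold change above 1.5 at that p, against 64 genes or 0.585%, and none passed after Benjamini-Hochberg adjustment, against 0 genes or 0% by limma. The S34F libraries lay wholly above the WT libraries for 2 of the 9 genes, MDM2 and TP53I3, against 3.66% of genes tested, and wholly below for none, against 3.73%. Estimates were above 0 for 6 of the 8 and below 0 for 2, against 5973 above and 4969 below over all genes tested. The median of the 8 was 0.10 on the log2 scale beside 0.01 for all genes. S34F was the higher in each of the 3 pairs of like-numbered libraries for 3 of the 9 genes and the lower for 0. Over the 10942 genes tested these were 1459, or 13.3%, and 1322. With 3 libraries against 3, an exact two-sided permutation test of 1 gene cannot give a p below 0.1.

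MDM2 and PPM1D close the negative feedback on p53. MDM2 (ENSG00000135679, chr12:68808176-68850686) ubiquitinates p53 and marks it for the proteasome. It was measured at 2.79, 2.49 and 2.37 FPKM in S34F replicates 1, 2 and 3 and at 2.36, 2.28 and 2.24 FPKM in WT replicates 1, 2 and 3. The groups did not overlap, although S34F replicate 3 was only just above WT replicate 1, and S34F was the higher in each of the 3 pairs of like-numbered libraries. The ratio of group means was 1.11, and the log2 fold change was 0.11 (SE 0.10, 95% interval -0.13 to 0.34), with an unadjusted p of 0.320 by limma and an exact permutation p of 0.1. The exons of MDM2 share 5.91% of their bases with an antisense transcript, 3.30% with a processed pseudogene on the same strand and 1.00% with CPM on the other strand, and whether counting used strand is not given in the sources used here.

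PPM1D (ENSG00000170836, chr17:60600183-60666280), the phosphatase WIP1, removes activating phosphates from p53 and from the kinases ATM and CHEK2. Its levels were 2.21, 2.32 and 3.41 FPKM in S34F and 2.07, 2.48 and 2.37 FPKM in WT. S34F replicate 3 was 1.51 times the mean of S34F replicates 1 and 2, and the other 5 libraries lay between 2.07 and 2.48 FPKM. The log2 fold change of 0.13 (SE 0.15, 95% interval -0.23 to 0.48, unadjusted p = 0.426 by limma) fell to -0.02 when S34F replicate 3 was left out.

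GADD45A and RRM2B serve arrest and DNA repair. GADD45A (ENSG00000116717, chr1:67685061-67688338) binds PCNA and CDK1 and activates the kinase MAP3K4. It was found at 66.4, 68.5 and 56.0 FPKM in S34F and 54.2, 70.6 and 54.9 FPKM in WT. The groups overlapped, WT replicate 2 was the highest of the 6 libraries, and GADD45A was lower in both libraries numbered 3 than in the mean of replicates 1 and 2, at 0.830 times in S34F and 0.880 times in WT. Its log2 fold change was 0.09 (SE 0.14, 95% interval -0.25 to 0.43), with an unadjusted p of 0.544 by limma.

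RRM2B (ENSG00000048392, chr8:102204502-102239118) is the p53-inducible small subunit of ribonucleotide reductase, which supplies deoxynucleotides for repair and for mitochondrial DNA. It had 2.32, 2.005 and 2.95 FPKM in S34F and 1.96, 1.83 and 2.19 FPKM in WT. S34F was the higher in each of the 3 pairs, yet S34F replicate 2 lay below WT replicate 3, so the groups overlapped. The ratio of means was 1.22 and the log2 fold change 0.19 (SE 0.13, 95% interval -0.13 to 0.50, unadjusted p = 0.200 by limma, exact permutation p = 0.2). Without S34F replicate 3, its highest library, the log2 fold change was 0.08 (unadjusted p = 0.459 by limma). RRM2, the small subunit made in S phase, was at 5.09 to 15.2 FPKM, with S34F replicate 1 the highest and the libraries numbered 3 the lowest of their groups, and RRM1, the large subunit, had means of 24.1 FPKM in S34F and 23.7 FPKM in WT.

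SESN1 and SESN2 encode sestrins, which hold back mTORC1 through the GATOR2 complex and support antioxidant defence. SESN1 (ENSG00000080546, chr6:108986437-109094819) was measured at 3.63, 3.54 and 4.83 FPKM in S34F and 3.92, 4.37 and 2.90 FPKM in WT. In pairs 1 and 2 WT was the higher, and in pair 3 S34F was the higher, since S34F replicate 3 was the highest and WT replicate 3 the lowest of the 6 libraries. The log2 fold change was 0.08 (SE 0.17, 95% interval -0.31 to 0.48, unadjusted p = 0.629 by limma), and without both libraries numbered 3 it was -0.17. An antisense transcript shares 7.09% of the exonic bases of SESN1.

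SESN2 (ENSG00000130766, chr1:28259527-28282491) was measured at 21.3, 20.5 and 33.6 FPKM in S34F and 24.6, 25.3 and 31.3 FPKM in WT. S34F replicates 1 and 2 lay below all 3 WT libraries, while S34F replicate 3 lay above them. Over all 6 libraries the log2 fold change was -0.13 (SE 0.21, 95% interval -0.62 to 0.36, unadjusted p = 0.549 by limma). Without S34F replicate 3 it was -0.35 with an unadjusted p of 0.0333 by limma, and without both libraries numbered 3 it was -0.24 with an unadjusted p of 0.00803. These leave-out fits called far more genes in general, 1160 or 10.6% and 1846 or 16.9% of all tested, and 2 of the 8 p53 targets in each, SESN2 and TP53INP1. The third sestrin, SESN3, had a mean of 0.405 FPKM in S34F and 0.278 FPKM in WT and was not tested.

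TP53I3, TP53INP1 and ZMAT3 are tied to cell death, autophagy and RNA processing. TP53I3 (ENSG00000115129, chr2:24077433-24085861) encodes a quinone oxidoreductase named for its induction before p53-driven apoptosis. Its levels were 3.84, 4.17 and 4.08 FPKM in S34F and 3.40, 2.57 and 3.42 FPKM in WT. All 3 S34F libraries lay above all 3 WT libraries, and the lowest value by some distance was WT replicate 2. The ratio of group means was 1.29, from 4.03 ± 0.174 FPKM in S34F and 3.13 ± 0.484 FPKM in WT (SD, n = 3). The log2 fold change was 0.29 (SE 0.12, 95% interval 0.0034 to 0.58), with an unadjusted p of 0.0480 by limma, an adjusted p of 1.00 over all genes and an exact permutation p of 0.1. With like-numbered libraries blocked, limma gave an unadjusted p of 0.0615, and 0 of the 8 genes passed in that fit, against 443 or 4.05% of all tested. Without WT replicate 2 the estimate was 0.19 with an unadjusted p of 0.184 by limma. TP53I3 shares 3.46% of its exonic bases with FAM228B on the other strand.

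TP53INP1 (ENSG00000164938, chr8:94925972-94949411) is a nuclear protein that promotes p53 phosphorylation and takes part in autophagy. It had 3.07, 3.05 and 6.80 FPKM in S34F and 4.14, 3.73 and 5.32 FPKM in WT. The pattern was that of SESN2, with S34F replicates 1 and 2 lowest, WT replicates 1 and 2 between, and WT replicate 3 and S34F replicate 3 at the top in that order. Its log2 fold change was -0.09 (SE 0.27, 95% interval -0.74 to 0.56, unadjusted p = 0.763 by limma). It was -0.40 without S34F replicate 3, with an unadjusted p of 0.0325 by limma, and 0.07 without S34F replicate 1 or S34F replicate 2. Its paralog TP53INP2 had 5.71, 5.86 and 19.1 FPKM in S34F and 5.74, 4.75 and 14.8 FPKM in WT, again highest in the libraries numbered 3.

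ZMAT3 (ENSG00000172667, chr3:179017223-179072279) is an RNA-binding zinc finger protein that regulates splicing and RNA stability. It was at 0.495, 0.294 and 0.826 FPKM in S34F and 0.306, 0.404 and 0.365 FPKM in WT, and S34F replicate 2 was the lowest of all. Its mean lay below the limit of 1 FPKM, so it was left out of the test. With the limit at 0.1 FPKM its log2 fold change was 0.17 (95% interval -0.14 to 0.48, unadjusted p = 0.247 by limma), and its exact permutation p was 0.4.

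**Figure D2:**
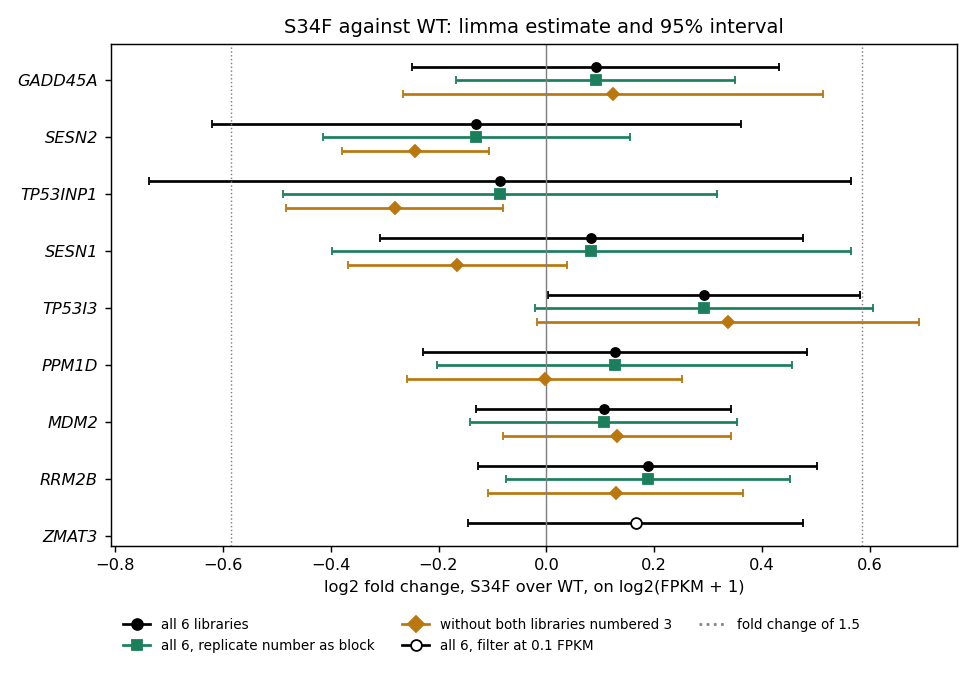
Log2 fold change of S34F over WT on log2(FPKM + 1) (horizontal axis) with 95% intervals from limma, for all 6 libraries, with the replicate number as a block and without both libraries numbered 3; ZMAT3 is from the fit with a limit of 0.1 FPKM. With all 6 libraries only the interval of TP53I3 lies above 0, and without the libraries numbered 3 those of SESN2 and TP53INP1 lie below 0.

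For TP53INP1, ZMAT3, SESN2 and GADD45A the highest and the lowest library were in the same group. For MDM2, PPM1D, RRM2B, SESN1 and TP53I3 they were in different groups. S34F replicate 3 was the highest library for 6 of the 9 genes, TP53INP1, ZMAT3, SESN2, PPM1D, RRM2B and SESN1, whereas 31.4% of all genes tested were highest there. Against the mean of S34F replicates 1 and 2 it was 2.22 times as high for TP53INP1, 2.09 times for ZMAT3 and 1.51 times for PPM1D. WT replicate 3 moved the same way for TP53INP1, at 1.35 times WT replicates 1 and 2, and for SESN2, at 1.26 times, and the other way for SESN1, at 0.700 times. The other 3 genes were not highest in S34F replicate 3, which stood at 1.02 times the mean of S34F replicates 1 and 2 for TP53I3, 0.899 times for MDM2 and 0.830 times for GADD45A. Over the 36 pairs of these genes the correlation of log2(FPKM + 1) ran from -0.75 between GADD45A and TP53INP1 to 0.97 between SESN2 and TP53INP1, with a median of 0.26, as a description over 6 libraries of which 2 stood apart.

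**Figure D3:**
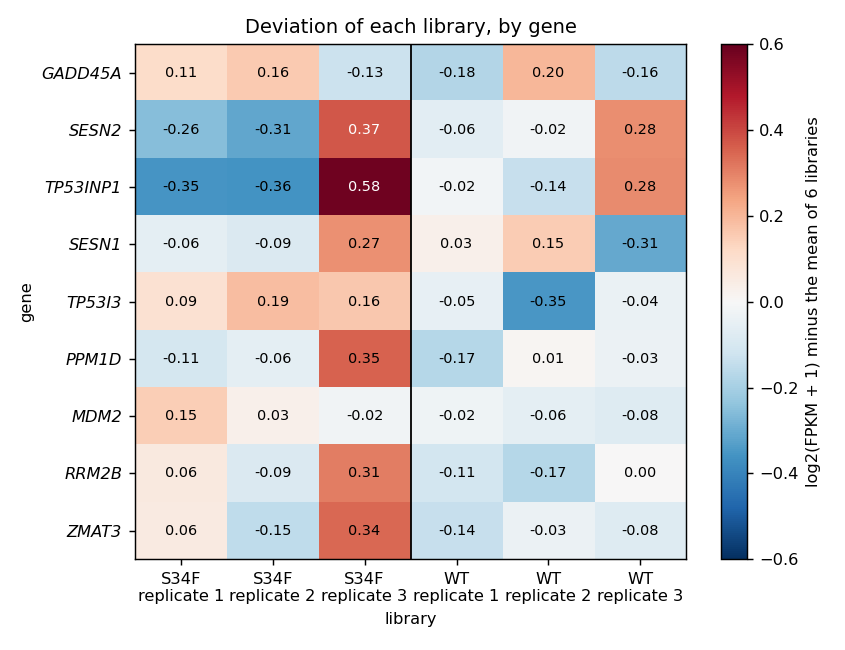
Deviation of each library from the mean of all 6 on log2(FPKM + 1) (colour and printed value) for the 9 p53 target genes (rows) in the 6 libraries (columns). S34F replicate 3 reaches 0.58 for TP53INP1 and 0.37 for SESN2 but -0.13 for GADD45A, and TP53I3 is above 0 in the 3 S34F libraries and below 0 in the 3 WT libraries.

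The genes most like MDM2 and SESN1 were sought among tested genes with a range of at least 0.5 on the log2 scale. For MDM2, compared with 5010 genes, they were CDC25B (r = 0.99), AL163051 (r = 0.98) and THEM4 (r = 0.97). CDC25B, the phosphatase that activates CDK1 at entry to mitosis, had 9.48, 6.27 and 5.23 FPKM in S34F and 5.13, 5.01 and 4.44 FPKM in WT, the same order of libraries as MDM2. For SESN1, compared with 5009 genes, they were ANO1 (r = 0.98), DDX5 (r = 0.97) and CASP8 (r = 0.97). All these values are over 6 libraries and were picked as the highest over all genes compared.

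Regulators of p53 were compared as a list. MDM4, which masks the activation domain of p53, was not tested, with 0.380 to 0.553 FPKM in 5 libraries and 1.40 FPKM in WT replicate 3. In the list of p53 regulators 15 of 21 were tested and 0 passed an unadjusted p under 0.05 by limma, with a median log2 fold change of 0.03. The ribosomal proteins RPL11 and RPL5, which bind MDM2 when ribosome assembly fails, were its most abundant genes, at 367 to 473 FPKM and 236 to 300 FPKM, with log2 fold changes of -0.08 and -0.02.

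Other p53 targets were taken from lists for growth arrest and repair, for cell death and for metabolism, secretion and signalling. Of 47 listed there, 46 had a row, 29 were tested and 0 passed an unadjusted p under 0.05 by limma, with 15 estimates above 0, 14 below and a median of 0.00. For growth arrest and repair 11 of 15 were tested, with BTG2 at 33.3 to 72.6 FPKM and TRIAP1 at 32.4 to 42.6 FPKM the most abundant. For cell death 8 of 14 were tested, led by BAX, the pore former of mitochondrial apoptosis, at 33.3 to 41.3 FPKM and the nuclease AEN at 15.3 to 17.9 FPKM. For metabolism, secretion and signalling 10 of 18 were tested, led by FDXR, a mitochondrial reductase, at 47.7 to 87.8 FPKM and the cytokine GDF15 at 40.0 to 49.7 FPKM. The medians of these lists were -0.04, 0.01 and -0.03 on the log2 scale.

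CDKN1A, which encodes the CDK inhibitor p21, had 14.9, 13.6 and 28.1 FPKM in S34F and 12.6, 13.8 and 8.32 FPKM in WT. The groups overlapped, since S34F replicate 2 was below WT replicate 2, and the highest and lowest values were the libraries numbered 3. Its log2 fold change was 0.62 (SE 0.30, unadjusted p = 0.0780 by limma) and without both libraries numbered 3 it was 0.11 (unadjusted p = 0.239). In contrast to the abundant targets, 17 of the 46 lay below a mean of 1 FPKM and 8 below 0.1 FPKM, among them PLK2 at 0 to 0.00435 FPKM and SPATA18 at 0 to 0.00770 FPKM. The death receptor gene FAS was at 0.0644 to 0.217 FPKM.

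**Figure D4:**
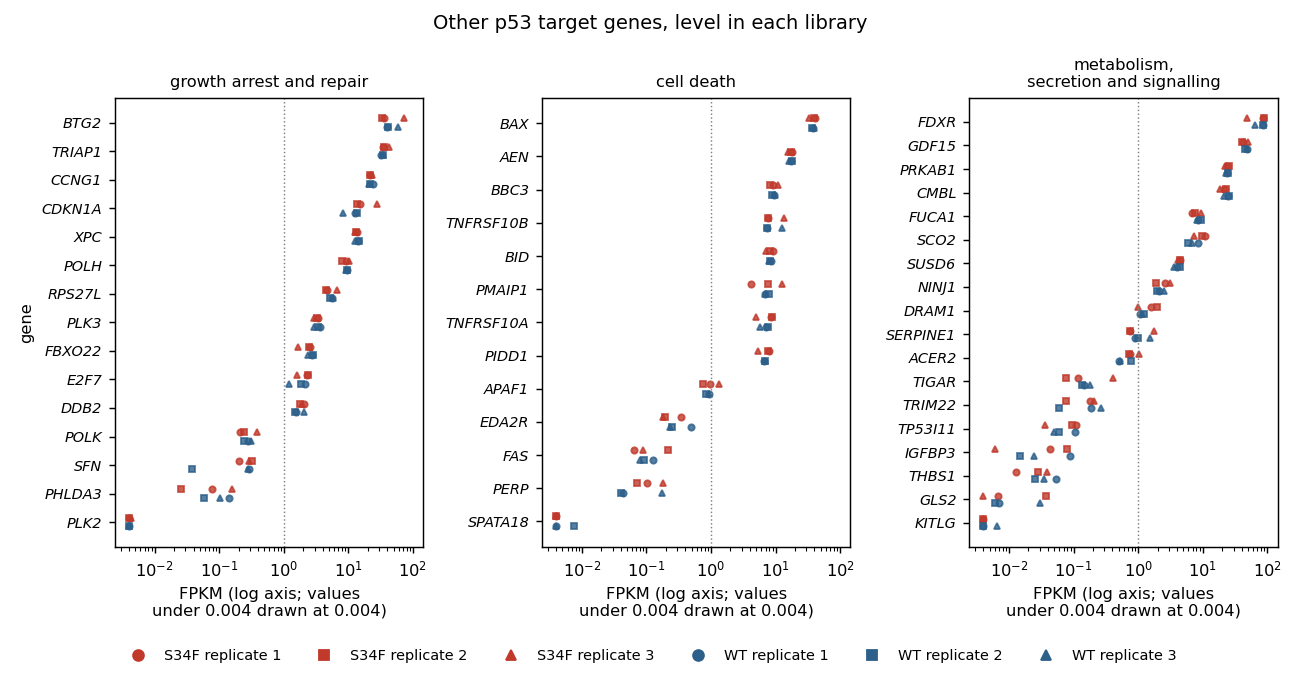
FPKM (horizontal axis, log scale, values under 0.004 drawn at 0.004) of the other p53 targets with a row in the table, in the 3 S34F and 3 WT libraries, by list; the dotted line is 1 FPKM, the limit for testing. BTG2, BAX and FDXR head the lists, 17 of 46 genes have a mean below 1 FPKM, and S34F and WT points of each tested gene overlap.

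Paralogs and partners of the p53 targets also passed no test, with 16 of 19 tested, 0 at an unadjusted p under 0.05 by limma and a median log2 fold change of 0.06. GADD45B, like GADD45A an activator of MAP3K4, had 1.94, 1.91 and 4.93 FPKM in S34F and 1.76, 1.76 and 2.54 FPKM in WT, so unlike GADD45A it was highest in the libraries numbered 3. GADD45G was below 1 FPKM in every library. VAT1, a relative of TP53I3, and ZMAT2 were the most abundant of this list, with means of 106 and 59.3 FPKM in S34F and 101 and 59.2 FPKM in WT. PPM1A and PPM1B, phosphatases of the same family as PPM1D, were at 1.05 to 1.75 FPKM and 1.81 to 2.63 FPKM. Of the sestrin partners in GATOR1 and GATOR2, WDR59 was lower in all 3 S34F libraries (6.15 to 7.15 FPKM) than in all 3 WT libraries (7.19 to 8.08 FPKM). Its unadjusted p was 0.245 by limma. In this list 1 of the 16 tested lay wholly below WT and 0 wholly above, against 3.73% and 3.66% of all genes tested.

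DDIT4 was the only gene in the 7 pathway lists that passed an unadjusted p under 0.05 by limma. That is 1 of 74 tested, against 2.39% of all genes tested. It encodes REDD1, an inhibitor of mTORC1 that ATF4 and p53 can both induce, and it stands in the ATF4 list that shares SESN2 and GADD45A, of which all 8 genes were tested. DDIT4 had 39.5, 43.2 and 51.4 FPKM in S34F and 68.6, 69.6 and 57.8 FPKM in WT. All S34F libraries lay below all WT libraries, as for 3.73% of all genes tested, and the libraries numbered 3 were the closest to each other. The log2 fold change was -0.54 (SE 0.14, 95% interval -0.86 to -0.22, unadjusted p = 0.00550 by limma), the adjusted p over all genes was 1.00, and with the replicate block the unadjusted p was 0.0136. ATF4 and PPP1R15A, the most abundant of that list, had log2 fold changes of 0.05 and 0.14. DDIT3, which encodes CHOP, had 79.0 FPKM in S34F replicate 3 and 45.7 FPKM in WT replicate 3 against 15.6 to 25.9 FPKM in the other 4 libraries, so it was high in the same libraries as SESN2 and TP53INP1. The part of the ATF4 pathway in the levels of SESN2 and TP53INP1 was not tested.

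In the FOXO list, which shares SESN1 and GADD45A, 6 of 8 genes were tested and 0 passed an unadjusted p under 0.05 by limma. FOXO3 had 4.68, 4.27 and 8.10 FPKM in S34F and 2.85, 2.77 and 4.80 FPKM in WT. The gene was higher in S34F in each of the 3 pairs, as were 13.3% of all genes tested, but with overlapping groups. Its log2 fold change of 0.56 had an unadjusted p of 0.0676 by limma. With the replicate block the unadjusted p by limma was 0.00218 (adjusted p 0.994), in a fit that called 4.05% of all genes tested. Without both libraries numbered 3 the unadjusted p by limma was 0.00187 (adjusted p 0.128), in a fit that called 16.9%. TXNIP was the most abundant gene of this list. It was lower in all S34F libraries (91.3 to 94.8 FPKM) than in all WT libraries (99.2 to 110.1 FPKM). Its unadjusted p was 0.155 by limma, and 3.73% of all genes tested lay wholly below WT in S34F. KLF2, not tested for low level, went the other way, at 0.602 to 0.944 FPKM in S34F and 0.413 to 0.525 FPKM in WT. Of all genes tested, 3.66% lay wholly above WT in S34F. BCL2L11 had the largest estimate of either sign in this list, at -0.64 (unadjusted p = 0.174 by limma), with 1.32 FPKM in S34F replicate 3. Without both libraries numbered 3 its estimate was -0.23 (unadjusted p = 0.0204 and adjusted p 0.218 by limma), in the fit that called 16.9%. CITED2 had means of 20.8 FPKM in S34F and 17.7 FPKM in WT.

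Markers of other cells were compared between the groups as well. The 12 erythroid markers summed to 3.61 to 4.07% of all FPKM in S34F and 3.32 to 3.70% in WT, and 0 of 12 passed an unadjusted p under 0.05 by limma. The 12 monocytic and myeloid markers summed to 24.2 to 37.7 FPKM in S34F and 34.7 to 38.0 FPKM in WT. Of the 4 tested, 2, ITGAM and CD33, were lower in all S34F libraries than in all WT libraries, against 3.73% of all genes tested. Their unadjusted p-values were 0.0148 and 0.0469 by limma, and 2.39% of all genes tested were under 0.05. Among the 8 not tested for low level, CEBPA was higher in all S34F libraries (0.769 to 0.955 FPKM) than in all WT libraries (0.469 to 0.723 FPKM). CD14 and S100A9 were higher in S34F in each of the 3 pairs with overlapping groups. Of all genes tested, 3.66% lay wholly above WT in S34F and 13.3% were higher in each pair. The markers' part in the level of TP53I3 was not tested.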

How the data were processed

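Total RNA from 6 libraries, 3 S34F and 3 WT as titled, was sequenced on an Illumina instrument. The authors deposited 1 table of FPKM values per gene. It is named as a raw count matrix, yet 100% of the deposited values above 0 are not whole (tolerance 1e-09), and the headings give FPKM, the unit used. The submitters' processing notes name StringTie and edgeR; aligner, genome build and strand setting are not given in the sources used here. The table also holds the authors' fold changes, p-values and q-values, which were not used.

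Genes with a mean of at least 1 FPKM were compared on log2(FPKM + 1) with limma 3.58.1 (R 4.3.3; empirical Bayes with a mean-variance trend, Benjamini-Hochberg adjustment over all 10942 genes). Scripts were tested on simulated data. Single genes were also compared by exact two-sided permutation over the 6 libraries. Depth was read from the commonest low value, taken as 1 fragment, of 5482 single-exon genes. This value was sought only within a narrow range set in advance, which bounds the depth it can give. Positions come from GENCODE 29 (GRCh38), where 31002 of 31142 gene IDs matched.

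The 9 genes, the 9 gene lists and the tests were chosen with earlier results of these data known. From each pathway list the text names genes with an unadjusted p under 0.05, the 2 with the highest mean, and paralogs or partners of the 9 genes; CDKN1A, FOXO3 and U2AF1 were named in any case. DDIT3, TXNIP, MDM4, PLK2, SPATA18, FAS and the markers are named for their role or level, DDIT3, PLK2, SPATA18 and FAS after their values were seen. BCL2L11 and KLF2 are named for their difference between the groups, also after their values were seen. CDKN2A and TP53AIP1 were not analysed here, and 1 listed gene is not reported here and was left out of the list counts. Like-numbered libraries deviated together from their group means (correlations over genes of 0.21, 0.17 and 0.38), which was taken as pairing, although S34F replicate 2 correlated at 0.20 with WT replicate 1; the labels give only the shared number. The alternatives were 16 planned settings (scaling, pseudocount, filter, variance model, replicate block, each library left out) and 1 chosen after seeing the data, without both libraries numbered 3.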

Additional observations from a re-analysis of the deposited data

How the results depend on the processing

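Of the 8 p53 targets tested, MDM2, GADD45A and RRM2B kept an estimate above 0 and an unadjusted p over 0.05 in all 17 alternatives by limma, and SESN2 kept one below 0, with an unadjusted p under 0.05 in 2 of 17. The estimate of TP53I3 ran from 0.19 to 0.38, with an unadjusted p of 0.0420 to 0.184 that was under 0.05 in 6 of 17. The number of p53 targets at an unadjusted p under 0.05, 1 in the main comparison, was 0 with median-ratio scaling, upper quartile scaling, quantile normalization, a limit of 0.1 FPKM or the replicate block, 0 to 2 with 1 library left out, and 2 without both libraries numbered 3. Some estimates changed sign. That of PPM1D ran from -0.0185 to 0.21 with 1 library left out and was -0.0035 without both libraries numbered 3. In the same settings that of SESN1 ran from -0.0491 to 0.18 and was -0.17, and that of TP53INP1 ran from -0.40 to 0.0722 and was -0.28. The cause of these changes was not tested. Over all genes, 262 at an unadjusted p under 0.05 became 904 without a filter, 571 with a limit of 0.1 FPKM, 443 with the replicate block, 162 to 1160 with 1 library left out, the lowest without WT replicate 1 and the highest when S34F replicate 3 was dropped, and 1846 without both libraries numbered 3. Genes that also had a fold change above 1.5, 64 at first, numbered 122 with a pseudocount of 0.1 and of 0.01, 66 to 180 with 1 library left out and 183 without both numbered 3. At an adjusted p under 0.05 there were 0 genes, 1 with upper quartile scaling, 0 to 3 with 1 library left out and 8 without both numbered 3. In the pathway lists the 1 gene at an unadjusted p under 0.05 became 2 with a limit of 0.1 FPKM, 2 with the replicate block, 1 to 9 with 1 library left out and 16 without both numbered 3; those with a fold change above 1.5 went from 0 to 1 with upper quartile scaling, 0 to 2 with 1 library left out and 1 without both numbered 3. Upper quartile scaling moved the median of all genes from 0.01 to -0.04. The replicate block changed the call of TP53I3 among the p53 targets and no other, and depth limits ZMAT3 most, at 6.82 to 20.5 fragments per kilobase.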
